A study of Mus musculus with 13 samples.

Results

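The genes described here are 36 mouse genes of glycolysis and of the response to low oxygen. They comprise glucose and lactate transporters, the enzymes that turn glucose into lactate and the enzymes that regulate them, hydroxylases of collagen, the oxygen sensors with the transcription factor gene Hif1a, and further known targets of that factor. Each was represented by the array feature (a transcript cluster) whose only gene symbol is that gene, and by the feature with the highest mean where there were several. Of the 36 genes, 34 were measured, out of 30142 gene symbols and 65929 features, and Gpi1 and Eno1, which had no feature of their own, are not analysed here. The samples were 13 endometria, each scraped from the uterus of 1 female C57BL/6 mouse. All 13 mice lost both ovaries at 6 to 8 weeks of age and were then treated for 12 weeks. The control group (CON, n = 3) ate normal chow and had no pellet. The estradiol group (E2, n = 4) ate chow and carried a pellet under the skin that releases 17-β estradiol. The high-fat diet group (HD, n = 3) had the diet and no pellet, and the combined group (MIX, n = 3) had both. The sources used here give no dose for the pellet. The study asked how estrogen and a high-fat diet, alone or together, alter the transcriptome of this tissue.

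Glycolysis splits glucose into pyruvate. When oxygen is scarce, pyruvate is reduced to lactate by lactate dehydrogenase, and the cell exports the lactate. The transcription factor HIF-1 couples this pathway to oxygen: its alpha subunit, encoded by Hif1a, is hydroxylated by the prolyl hydroxylases of the Egln genes and degraded while oxygen is present. At low oxygen the subunit is stable and binds a short core sequence near genes for glucose transport, glycolysis, collagen hydroxylation and pH control. In the uterus, estrogen is known to drive growth and fluid uptake and to act on glucose transport and vascular growth. Ovariectomy removes the main source of that estrogen, and the pellet supplied estradiol in E2 and MIX.

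The upstream sequences of the members were searched for both versions of the HIF core, ACGTG and GCGTG, on either strand, in the 250 bases before each RefSeq gene start (GRCm38.p6). A window was given for 31 of the 34 measured members, 45 windows in all. ACGTG lay in 53.3% of the members' windows and in 16.6% of all 32851 windows of that length, and GCGTG lay in 46.7% and 28.2%. Either core lay in 77.8% of the members' windows and 38.6% of all windows, and 29 of the 31 members had at least 1 such window (all but Tpi1 and Car12). The palindrome CACGTG, which contains ACGTG on both strands, lay in 11.1% and 6.02%. A match is a description of these letters and not a binding site measured here. The list was drawn up to include known HIF targets, so its higher shares are not an independent result. The windows of 6 members whose values are given mouse by mouse are shown 5′ to 3′ on the gene's strand, with each core in capitals (CACGT and CACGC are the cores read from the other strand, and overlapping cores run together). They are P4ha1 (chr10:59323046-59323295, plus strand), a collagen hydroxylase gene, Adm (chr7:110627407-110627656, plus strand), Ankrd37 (chr8:45999851-46000100, minus strand) and Car9 (chr4:43506776-43507025, plus strand) among the other targets, and Ldha (chr7:46845554-46845803, plus strand) and Pgk1 (chrX:106186850-106187099, plus strand) among the enzymes.
P4ha1: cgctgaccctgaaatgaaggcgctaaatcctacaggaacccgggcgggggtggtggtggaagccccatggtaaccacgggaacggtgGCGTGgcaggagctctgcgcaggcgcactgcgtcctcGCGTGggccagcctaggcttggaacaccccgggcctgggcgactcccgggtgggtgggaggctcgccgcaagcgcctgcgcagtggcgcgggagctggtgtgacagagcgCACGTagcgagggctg
Adm: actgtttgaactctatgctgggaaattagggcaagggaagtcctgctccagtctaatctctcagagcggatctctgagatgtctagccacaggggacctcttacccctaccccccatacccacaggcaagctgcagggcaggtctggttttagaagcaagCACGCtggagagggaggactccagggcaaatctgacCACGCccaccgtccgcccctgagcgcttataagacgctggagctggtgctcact
Ldha: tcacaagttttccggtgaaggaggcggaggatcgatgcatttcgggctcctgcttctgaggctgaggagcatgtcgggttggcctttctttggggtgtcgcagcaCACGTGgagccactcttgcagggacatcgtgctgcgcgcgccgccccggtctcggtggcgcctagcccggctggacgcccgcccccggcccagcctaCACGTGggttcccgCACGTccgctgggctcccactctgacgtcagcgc
Pgk1: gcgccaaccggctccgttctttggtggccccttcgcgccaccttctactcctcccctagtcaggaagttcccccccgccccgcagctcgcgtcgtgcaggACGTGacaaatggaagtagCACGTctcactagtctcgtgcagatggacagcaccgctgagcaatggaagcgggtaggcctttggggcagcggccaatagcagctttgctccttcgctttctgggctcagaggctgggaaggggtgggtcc
Ankrd37: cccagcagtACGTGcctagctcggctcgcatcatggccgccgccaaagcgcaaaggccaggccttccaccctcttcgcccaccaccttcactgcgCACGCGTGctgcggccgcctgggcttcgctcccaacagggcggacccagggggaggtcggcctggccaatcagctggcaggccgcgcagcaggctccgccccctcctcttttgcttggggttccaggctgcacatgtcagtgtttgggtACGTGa
Car9: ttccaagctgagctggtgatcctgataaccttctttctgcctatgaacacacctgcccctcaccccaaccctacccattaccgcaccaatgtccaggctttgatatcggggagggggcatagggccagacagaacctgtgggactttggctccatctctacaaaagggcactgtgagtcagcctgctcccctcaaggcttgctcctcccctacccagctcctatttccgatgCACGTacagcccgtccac
P4ha1 had 3 cores in this window, Adm 2, Ldha 5, Pgk1 2, Ankrd37 4 and Car9 1, with each strand of a palindrome counted. The palindrome accounts for 4 of those of Ldha.

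The values are log2 expression made by the authors with RMA. This method corrects the background, gives the probe intensities of all arrays the same distribution and then summarises the probes of each feature. Array medians lay between 4.48 and 4.71, and all 34 members averaged above them. A value ranks mice for 1 gene and does not rank genes against each other. A difference between groups is on the log2 scale, carries its standard error (SE) from limma and is adjusted for the 2 styles of animal code in the sample titles (a numbered style, and a lettered style that includes every MIX mouse), and a member passed where its Benjamini-Hochberg adjusted p, taken across the whole array, was under 0.05. Markers of uterine epithelium averaged 9.73 to 10.25 in every mouse, and those of endometrial stroma 8.22 to 9.44, while skeletal muscle markers stayed between 5.48 and 5.65. Lactoferrin (Ltf), an estrogen-induced gene of the mouse uterus, averaged 12.20 ± 0.26 in CON, 12.64 ± 0.21 in E2, 12.67 ± 0.43 in HD and 13.01 ± 0.38 in MIX (mean ± SD), so HD mice, which had no pellet, were level with E2 mice, and both overlapped CON. The estrogen receptor gene Esr1 averaged 9.44 ± 0.24, 8.96 ± 0.23, 9.22 ± 0.11 and 8.91 ± 0.63 in the same order. The progesterone receptor gene Pgr averaged 10.54 ± 0.34, 9.96 ± 0.52, 9.93 ± 0.71 and 9.50 ± 0.62, again with HD level with E2. MIX replicate 3 and E2 replicate 1 lay farthest along the first principal component of all features, and MIX replicate 2 stood apart on the second. In RNA from whole scrapings, fewer cells of a type and less RNA per cell cannot be told apart.

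No member passed the test in any comparison, so each difference below is a value that did not pass. Averaged over the 34 members, the deviation from each gene's mean over all mice was -0.35 ± 0.19 in CON, 0.08 ± 0.30 in E2, -0.06 ± 0.21 in HD and 0.31 ± 0.30 in MIX (SD over 3 or 4 mice). By mouse it was -0.17, -0.33 and -0.56 in the CON mice, 0.35, 0.33, -0.17 and -0.20 in E2, -0.30, 0.01 and 0.11 in HD, and 0.39, -0.01 and 0.56 in MIX. CON and MIX did not overlap on this scale, while E2 and HD each overlapped CON. The E2 mice fell into a higher pair, replicates 1 and 2, and a lower pair, replicates 3 and 4, that lay at the level of CON replicate 1. MIX replicate 3 had the highest value of all mice in 14 of 34 members, MIX replicate 1 in 7, and CON replicate 3 had the lowest value in 14.

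**Figure D1:**
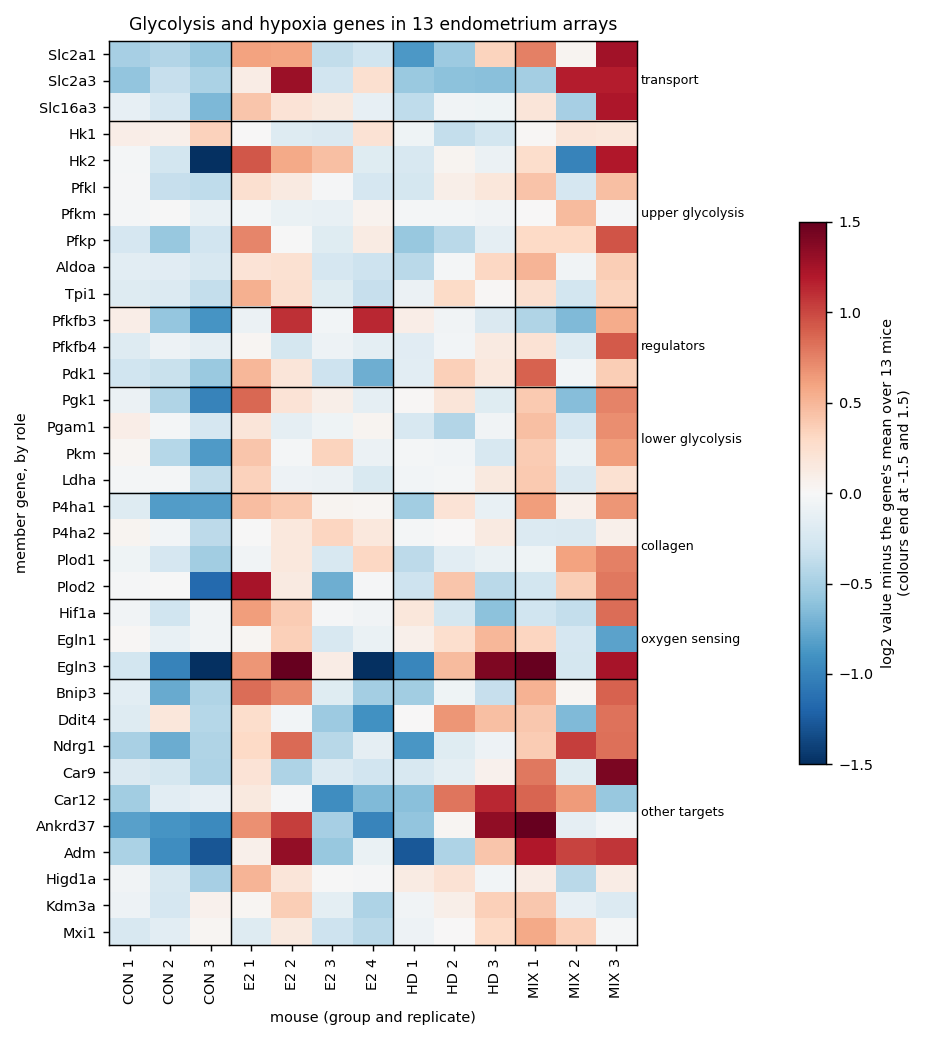
Each cell is the log2 value of 1 gene (rows, by role) in 1 mouse (columns, by group) minus that gene's mean over 13 mice, with red above and blue below the mean; colours saturate at 1.5 log2 units on either side. The CON columns are mostly blue, E2 replicates 1 and 2 and MIX replicates 1 and 3 mostly red, and E2 replicates 3 and 4 are paler and mixed.

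Glucose enters cells through the transporters Slc2a1 and Slc2a3, and lactate leaves through Slc16a3. Slc2a1, the broadly expressed glucose transporter, was measured at 8.70, 8.76 and 8.63 in the CON mice, 9.81, 9.79, 8.83 and 8.90 in E2, 8.34, 8.66 and 9.54 in HD, and 9.96, 9.24 and 10.46 in MIX. Every E2 and MIX mouse exceeded every CON mouse, while HD spanned the CON values, and the tight CON range contrasts with a spread of more than 1 log2 unit within HD and MIX. The difference was 0.65 (SE 0.37) for E2 with CON and 1.13 (SE 0.46) for MIX with CON. Slc2a3, a high-affinity transporter, averaged 5.69 ± 0.12 (SD, n = 3) in CON and 5.56 ± 0.04 (SD, n = 3) in HD. With the pellet its average was 6.50 ± 0.67 (SD, n = 4) on chow and 6.78 ± 0.97 (SD, n = 3) on the high-fat diet. Its E2 mice lay above all CON mice, but MIX replicate 1 (5.65) lay within CON. Slc16a3 differed by 0.81 (SE 0.39) between MIX and CON, with its highest value, 7.36, in MIX replicate 3 and MIX replicate 2 (5.65) inside the CON range.

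The first regulated steps are run by hexokinases and phosphofructokinases. Hk2, the regulated hexokinase, read 8.06, 7.81 and 6.43 in CON, 9.01, 8.65, 8.54 and 7.90 in E2, 7.84, 8.13 and 8.00 in HD, and 8.35, 7.08 and 9.29 in MIX. CON replicate 3 was the lowest mouse and MIX replicate 2 the next, so MIX and CON overlapped. Hk2 differed by 1.03 (SE 0.45) for E2 with CON and 1.33 (SE 0.55) for MIX with CON, where the plain difference of means, without the code style term, was 0.81. Hk1, the constitutive hexokinase, had its lowest group mean on the diet alone: 7.51, 7.48 and 7.75 in CON, 7.41, 7.21, 7.19 and 7.62 in E2, 7.34, 7.05 and 7.13 in HD, and 7.42, 7.59 and 7.57 in MIX. All HD mice lay below all CON mice, and all MIX mice above all HD mice. The HD with CON difference was -0.41 (SE 0.11), and the interaction, by which the pellet difference of the diet groups exceeds that of the chow groups, was 0.43 (SE 0.17), with an adjusted p of 1 in limma for both. Among the phosphofructokinase genes, Pfkp read 6.18, 5.86 and 6.15 in CON, 7.17, 6.43, 6.25 and 6.55 in E2, 5.86, 6.03 and 6.30 in HD, and 6.73, 6.73 and 7.38 in MIX. Every E2 and MIX mouse exceeded every CON mouse for Pfkp, and MIX lay above HD by 0.79 (SE 0.28). Pfkl differed by 0.53 (SE 0.24) and Pfkm by 0.20 (SE 0.14) between MIX and CON, and the latter rested on MIX replicate 2 (6.90), since the other mice had 6.31 to 6.47. Aldolase A (Aldoa) and triosephosphate isomerase (Tpi1), which act next, differed by 0.45 (SE 0.25) and 0.53 (SE 0.24) for MIX with CON, and the plain difference of Tpi1 was 0.35.

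The flow is steered by 3 regulators. Pfkfb3 and Pfkfb4 set the level of the activator of phosphofructokinase, and Pdk1 blocks the entry of pyruvate into the citric acid cycle. Pfkfb3 read 7.45, 6.76 and 6.46 in CON, 7.26, 8.44, 7.30 and 8.47 in E2, 7.45, 7.29 and 7.13 in HD, and 6.89, 6.68 and 7.90 in MIX. Its E2 replicates 2 and 4 stood about 1 log2 unit above the other E2 mice. It was 0.97 (SE 0.40) higher in E2 than in CON, and its interaction of pellet and diet was -1.11 (SE 0.65). Pfkfb4 averaged 6.72 ± 0.05 (SD, n = 3) in CON and 7.17 ± 0.56 (SD, n = 3) in MIX, where replicate 3 reached 7.77. Pdk1 was measured at 6.25, 6.21 and 5.99 in CON, 7.04, 6.73, 6.23 and 5.81 in E2, 6.39, 6.90 and 6.70 in HD, and 7.43, 6.50 and 6.92 in MIX. Both high-fat diet groups lay entirely above CON for Pdk1, and E2 spanned CON. Its difference was 0.52 (SE 0.28) for HD with CON, 1.04 (SE 0.33) for MIX with CON and 0.77 (SE 0.32) for MIX with E2, the last with a plain difference of 0.50. Averaged over both pellet states, the diet difference of Pdk1 was 0.64 (SE 0.21), the smallest p of the members in that comparison, with an adjusted p of 1 in limma.

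In the lower part of the pathway, phosphoglycerate kinase (Pgk1) and pyruvate kinase (Pkm) make ATP and lactate dehydrogenase A (Ldha) makes lactate. Pkm had the smallest p of the members for MIX with CON. It read 9.64, 9.19 and 8.76 in CON, 10.03, 9.59, 9.95 and 9.53 in E2, 9.59, 9.57 and 9.37 in HD, and 10.00, 9.52 and 10.24 in MIX. CON replicate 1 lay above the lowest E2 and MIX mice, so the groups overlapped. The MIX with CON difference of the means was 0.72, and 0.99 (SE 0.23) after adjustment for code style, a fold of 1.98 with an adjusted p of 0.308 in limma. For E2 with CON it was 0.55 (SE 0.18), for MIX with HD 0.68 (SE 0.23), and for the diet averaged over pellet states 0.38 (SE 0.15), with plain differences of 0.41 and 0.23 in the latter pair. Ldha varied little: 9.61, 9.61 and 9.27 in CON, 9.99, 9.56, 9.55 and 9.41 in E2, 9.60, 9.61 and 9.78 in HD, and 10.03, 9.42 and 9.87 in MIX. Its MIX with CON difference was 0.38 (SE 0.20), and all 4 groups overlapped. Pgk1 read 10.59, 10.23 and 9.67 in CON, 11.54, 10.88, 10.76 and 10.54 in E2, 10.69, 10.86 and 10.50 in HD, and 11.07, 10.04 and 11.42 in MIX. CON replicate 1 lay above the lowest mouse of every treated group. Pgk1 differed by 0.72 (SE 0.30) for E2 with CON and 1.02 (SE 0.37) for MIX with CON (0.68 as a plain difference). The brighter of its 2 features, used here, carries chromosome 12 in its identifier although Pgk1 lies on chromosome X in GRCm38.p6. The dimmer feature, which carries X, gave 0.68 (SE 0.29) and 0.97 (SE 0.35) for the same comparisons. Pgam1, the mutase between them, differed by 0.35 (SE 0.25) for MIX with CON, with MIX replicate 3 (10.39) and replicate 1 (10.14) highest and replicate 2 (9.44) level with the lowest CON mouse.

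**Figure D2:**
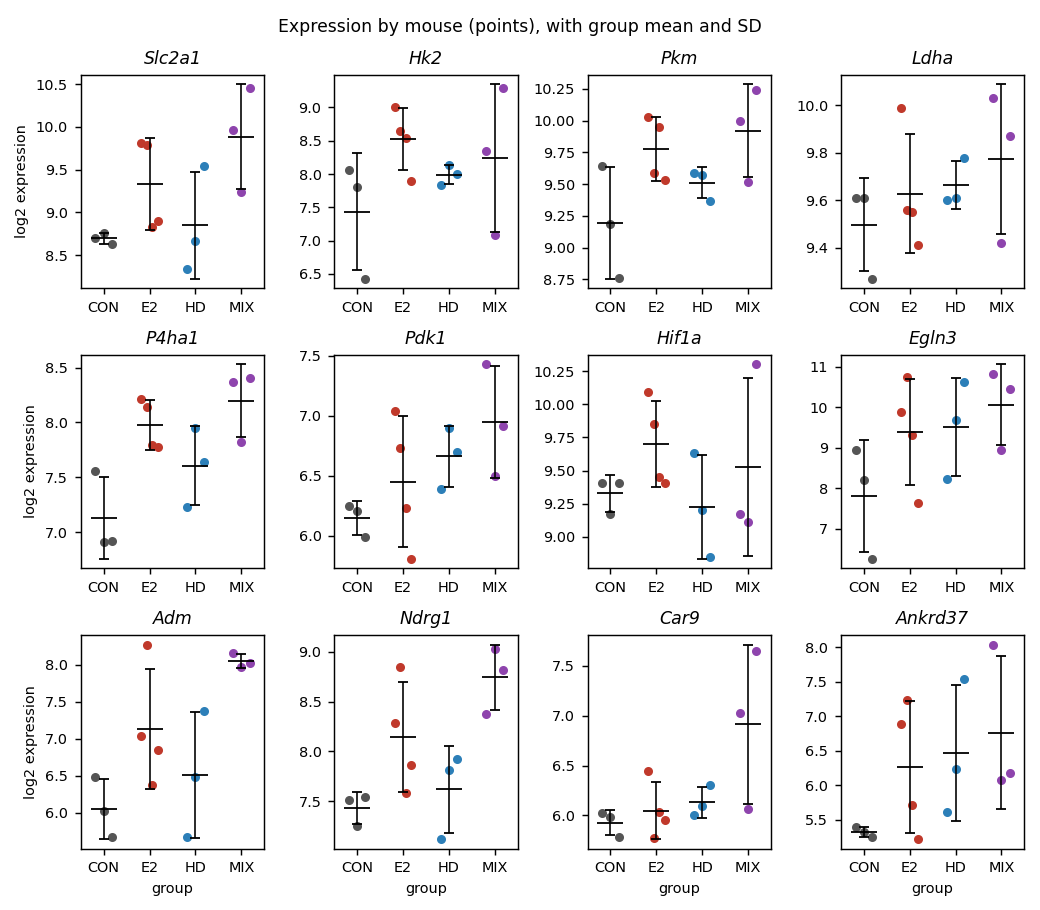
Points are the log2 expression of 12 members in each mouse, with the group mean as a long bar and the SD as whiskers (n = 3 for CON, HD and MIX, n = 4 for E2); each panel has its own axis. Slc2a1, Adm and Ndrg1 separate MIX from CON, while Pkm, Hk2, Ldha and Hif1a overlap between these groups.

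Hydroxylation of prolines and lysines in collagen needs oxygen, and the enzymes that do it are known hypoxia targets. P4ha1, the catalytic subunit of a collagen prolyl hydroxylase, had the smallest adjusted p of the members over all comparisons. It read 7.56, 6.91 and 6.92 in CON, 8.21, 8.14, 7.79 and 7.78 in E2, 7.23, 7.95 and 7.64 in HD, and 8.37, 7.82 and 8.41 in MIX. Every pellet mouse on either diet exceeded every CON mouse, and HD lay between and overlapped both. P4ha1 was 0.84 (SE 0.23) higher in E2 than in CON, a fold of 1.78, and 1.19 (SE 0.28) higher in MIX than in CON, a fold of 2.28 with an adjusted p of 0.319 in limma. The HD with CON difference was 0.48 (SE 0.24), and the pellet difference averaged over both diets was 0.77 (SE 0.18), with an adjusted p of 0.239 in limma. P4ha2, its paralog, read 6.40, 6.32 and 5.97 in CON, 6.35, 6.52, 6.68 and 6.52 in E2, 6.33, 6.36 and 6.49 in HD, and 6.15, 6.14 and 6.44 in MIX. It was 0.28 (SE 0.12) higher in E2 than in CON, MIX lay at the CON level, and its interaction was -0.38 (SE 0.19). The lysyl hydroxylase genes Plod1 and Plod2 differed by 0.66 (SE 0.25) and 1.09 (SE 0.52) for MIX with CON, and the plain difference of Plod2 was 0.69. Plod1 was at 8.21 and 8.36 in MIX replicates 2 and 3, above every other mouse, and at 7.54 in MIX replicate 1, level with CON replicate 1.

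Hif1a, the regulator itself, read 9.41, 9.17 and 9.41 in CON, 10.09, 9.85, 9.45 and 9.41 in E2, 9.63, 9.20 and 8.85 in HD, and 9.17, 9.11 and 10.30 in MIX. MIX replicates 1 and 2 lay near the lowest CON mouse, and replicate 3 lay above all other mice. Its difference was 0.35 (SE 0.29) for E2 with CON and 0.39 (SE 0.35) for MIX with CON, and the latter was 0.20 as a plain difference and -0.03 without MIX replicate 3 and E2 replicate 1. HIF-1 is controlled mainly through protein stability, which these RNA values do not measure. Egln1, the main oxygen sensor among the prolyl hydroxylases, averaged 9.75 ± 0.07 (SD, n = 3) in CON, 9.80 ± 0.26 (SD, n = 4) in E2, 10.06 ± 0.21 (SD, n = 3) in HD and 9.54 ± 0.56 (SD, n = 3) in MIX, where replicate 3 was lowest of all mice at 8.98. Egln3, a prolyl hydroxylase gene that is itself a HIF target, had the widest range of all members, 4.55 log2 units. It read 8.93, 8.20 and 6.26 in CON, 9.87, 10.75, 9.31 and 7.63 in E2, 8.22, 9.68 and 10.61 in HD, and 10.81, 8.94 and 10.44 in MIX. MIX lay above CON by a narrow margin between MIX replicate 2 and CON replicate 1, and E2 and HD both overlapped CON. The difference was 1.51 (SE 0.82) for E2 with CON, 1.71 (SE 0.87) for HD with CON and 2.97 (SE 1.00) for MIX with CON. The diet difference averaged over pellet states was 1.59 (SE 0.66). Without the code style term the plain differences were smaller, 2.27 for MIX with CON and 1.19 for the diet.

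The remaining 10 members are targets of HIF with other functions. Adrenomedullin (Adm), a secreted vasodilator peptide, was the target whose MIX mice lay closest together: 6.48, 6.02 and 5.67 in CON, 7.03, 8.27, 6.38 and 6.85 in E2, 5.68, 6.49 and 7.37 in HD, and 8.15, 7.97 and 8.02 in MIX. Every MIX mouse exceeded every CON and HD mouse, and E2 replicate 2 (8.27) was the highest of all. Adm differed by 1.09 (SE 0.46) for E2 with CON, 1.93 (SE 0.57) for MIX with CON (a fold of 3.82, adjusted p 0.419 in limma) and 1.47 (SE 0.57) for MIX with HD. Ndrg1, a stress-responsive growth regulator, read 7.51, 7.25 and 7.54 in CON, 8.29, 8.85, 7.58 and 7.86 in E2, 7.12, 7.81 and 7.92 in HD, and 8.38, 9.03 and 8.82 in MIX. Its E2 and MIX mice all lay above CON, and its MIX mice above HD. The differences were 0.71 (SE 0.30), 1.27 (SE 0.37, a fold of 2.41) and 1.09 (SE 0.37) for E2 with CON, MIX with CON and MIX with HD. Bnip3, which acts in the removal of mitochondria, had MIX mice at 7.38, 6.89 and 7.74 above CON mice at 6.70, 6.10 and 6.41. Its difference was 1.17 (SE 0.39), and 0.93 as a plain difference.

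Carbonic anhydrases regulate pH at the cell surface. Car9, a widely used hypoxia marker, read 6.02, 5.98 and 5.78 in CON, 6.44, 5.77, 6.03 and 5.95 in E2, 6.00, 6.09 and 6.30 in HD, and 7.03, 6.06 and 7.65 in MIX. Only MIX replicates 1 and 3 stood clear of the other mice, and replicate 2 lay just above CON. The difference was 1.01 (SE 0.37) for MIX with CON and 0.89 (SE 0.37) for MIX with E2, while the E2 mice spanned the CON range. Car12 averaged 9.20 ± 0.22 (SD, n = 3) in CON, 9.10 ± 0.52 (SD, n = 4) in E2, 9.90 ± 0.94 (SD, n = 3) in HD and 9.78 ± 0.77 (SD, n = 3) in MIX. Its 5 highest mice were HD replicates 2 and 3, MIX replicates 1 and 2 and E2 replicate 1. Ankrd37, a small ankyrin-repeat gene, read 5.39, 5.32 and 5.25 in CON, 6.89, 7.24, 5.71 and 5.22 in E2, 5.61, 6.24 and 7.54 in HD, and 8.04, 6.07 and 6.17 in MIX. HD and MIX lay above the narrow CON range, while E2 replicate 4 lay below it. Ankrd37 differed by 1.14 (SE 0.68) for HD with CON and 1.45 (SE 0.79) for MIX with CON.

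Higd1a, a mitochondrial protein gene, read 6.33, 6.14 and 5.88 in CON, 6.89, 6.57, 6.38 and 6.37 in E2, 6.51, 6.60 and 6.34 in HD, and 6.49, 5.98 and 6.50 in MIX. All E2 and HD mice lay above CON, with differences of 0.41 (SE 0.15) and 0.37 (SE 0.16), and MIX overlapped CON. Mxi1, an antagonist of Myc, read 6.65, 6.73 and 6.92 in CON, 6.69, 7.03, 6.58 and 6.48 in E2, 6.81, 6.89 and 7.19 in HD, and 7.45, 7.24 and 6.86 in MIX, and differed by 0.43 (SE 0.20) for MIX with E2, a direction that turned to -0.25 with the replicate number as a block. Ddit4, an inhibitor of mTORC1 signalling, differed by 0.52 (SE 0.37) for HD with CON and 0.60 (SE 0.43) for MIX with CON (0.34 as a plain difference), and its E2 average of 7.54 ± 0.53 (SD, n = 4) was below CON at 7.69 ± 0.30 (SD, n = 3). Kdm3a, a histone demethylase gene, averaged between 8.10 and 8.32 in all 4 groups, with every group overlapping the others.

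For the estradiol pellet on chow (E2 with CON), 0 of 34 members passed, where 0% of all features did. At an unadjusted p under 0.05 in limma, 10 of 34 members were higher and 0 lower in E2, where 1.93% of all features were higher, and 4.27% of the 13251 named genes with a mean of at least 6, which all measured members have. Lower at that p were 2.09% of all features and 4.35% of those named genes. In 6 members every E2 mouse exceeded every CON mouse (Slc2a1, Slc2a3, Pfkp, P4ha1, Ndrg1 and Higd1a), where 3.01% of all features and 4.85% of those brighter genes did. The median difference of the members was 0.34, with 29 of 34 above 0, and that of all features -0.01, with 46.5% above 0 (48.4% of the brighter genes). Within the numbered mice the median was 0.39 (30 of 34 above 0), and between the single lettered mice of each group 0.23 (22 of 34). The smallest p belonged to P4ha1, Pkm and Higd1a. Single mice moved the count of 10 (here and below recounted in either direction), to 1 without either CON replicate 2 or CON replicate 3, to 5 without E2 replicate 1 or replicate 2, and to 6 without HD replicate 2. Here and below the share of all features was not recounted in the same way. These counts therefore do not separate a move of the members from a move of the whole array.

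For the high-fat diet without a pellet (HD with CON), 0 of 34 members passed, where 0% of all features did. At an unadjusted p under 0.05 in limma 1 member was higher (Higd1a), where 1.99% of all features and 1.72% of the brighter genes were. Another 1 was lower (Hk1), where 0.916% of all features and 2.26% of the brighter genes were. The members' share, 2.94% in each direction, was thus near that of the brighter genes. In 5 members all HD mice exceeded all CON mice (Tpi1, Pdk1, Egln1, Ankrd37 and Higd1a), where 5.58% of features and 4.79% of the brighter genes did. All HD mice lay below all CON mice in 1 member (Hk1), as in 1951 of 65929 features and 791 of the 13251 brighter genes. The members' median was 0.21 with 29 of 34 above 0, against 0.02 for all features, of which 57.2% were above 0 (47.3% of the brighter genes). It was 0.09 among numbered mice and 0.53 between the single lettered mice, and 0.06 without HD replicate 3. With 1 mouse left out the count of 2 lay between 1 (when CON 2, CON 3, E2 2, E2 4, HD 2 or HD 3 was the mouse removed) and 5 (without HD replicate 1), with 4 without CON replicate 1 and 3 without MIX replicate 2.

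Both treatments together (MIX with CON) gave the largest median difference of the members among the 8 comparisons. No member passed, where 0.00303% of all features did. At an unadjusted p under 0.05 in limma 14 of 34 members were higher in MIX and 0 lower, where 3.7% of all features were higher, and 8.43% of the brighter genes. Lower at that p were 4.64% of all features and 7.68% of the brighter genes. In 11 members all MIX mice exceeded all CON mice (Slc2a1, Pfkp, Aldoa, Pdk1, P4ha1, Egln3, Bnip3, Ndrg1, Car9, Ankrd37 and Adm), where 5.52% of all features and 11.2% of the brighter genes did. The median was 0.63, with 32 of 34 above 0 (Hk1 and Egln1 below), against -0.03 for all features. Of all features 42.5% were above 0, and 47.0% of the brighter genes. By role, the median difference was 1.13 for the 3 transporters, 0.53 for the 7 enzymes of the upper part of the pathway, 0.41 for the 3 regulators, 0.69 for the 4 enzymes of the lower part, 0.87 for the 4 collagen hydroxylases, 0.39 for Hif1a and the 2 sensors, and 0.80 for the 10 other targets. Among lettered mice, which hold 1 CON mouse, the members' median was 0.74. Leaving out CON replicate 3 turned the count of 14 into 5, MIX replicate 3 into 8 and MIX replicate 2 into 21, again without a recount over all features.

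**Figure D3:**
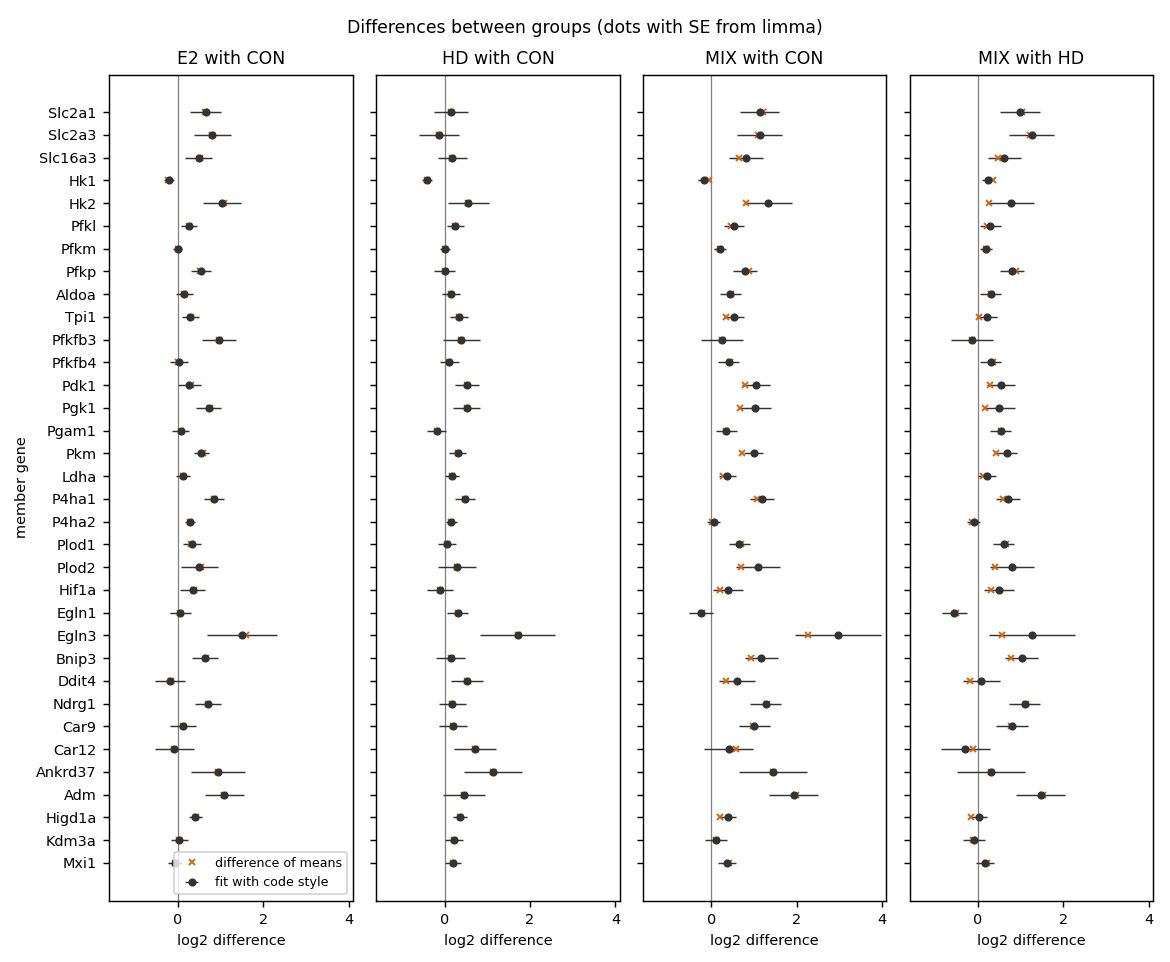
Dots with bars are log2 differences and SE from limma with the code style term for the 34 members (rows) in 4 comparisons (panels), and crosses are the plain differences of group means; the vertical line marks 0. In the MIX with CON panel 32 of 34 dots lie right of 0, with the longest bar at Egln3, and in the HD with CON panel 29 of 34 do, at smaller values.

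Adding the diet to the pellet (MIX with E2) gave 0 of 34 calls, where 0% of all features were called, and 2 members higher at an unadjusted p under 0.05 in limma (Pdk1 and Car9), where 1.25% of features and 2.26% of the brighter genes were. In 0 members did all MIX mice exceed all E2 mice, where 1.5% of features and 3.16% of the brighter genes did. Their median was 0.32, with 30 of 34 above 0, against -0.02 for all features, of which 43.7% were above 0 (49.1% of the brighter genes). It was 0.18 without E2 replicate 4 and 0.20 without MIX replicate 3, and the count of 2 lay between 0 (without CON replicate 1, E2 replicate 3 or E2 replicate 4) and 10 (without MIX replicate 2). Hk2, Pgk1 and Hif1a were above 0 only with the code style term, at 0.30, 0.30 and 0.04. As plain differences of MIX with E2 they were at -0.28, -0.09 and -0.17, and no member changed sign the other way. Adding the pellet to the diet (MIX with HD) gave 0 calls, where 0.00455% of features were called, and 8 of 34 members higher at an unadjusted p under 0.05 in limma, where 2.41% of features and 6.01% of the brighter genes were. In 8 members all MIX mice exceeded all HD mice (Slc2a3, Hk1, Pfkm, Pfkp, Plod1, Bnip3, Ndrg1 and Adm), where 3.47% of features and 7.85% of the brighter genes did. The median was 0.50 with 29 of 34 above 0, against -0.04 for all features, of which 37.5% were above 0 (48.5% of the brighter genes). It was 0.27 without MIX replicate 3, 0.24 among lettered mice and 0.31 without the code style term, and the count of 8 lay between 3 (without MIX replicate 3) and 15 (without MIX replicate 2), with 4 without CON replicate 3, E2 replicate 4 or HD replicate 1. MIX with CON, E2 with CON and HD with CON share the CON mice, and so their values are given side by side and not counted against each other.

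Averaged over both diets, the pellet difference gave 0 of 34 calls, where 0.0167% of all features were called. It gave 12 members higher and 0 lower at an unadjusted p under 0.05 in limma, where 3.73% of all features and 8.9% of the brighter genes were higher. Lower at that p were 6.25% of all features and 7.43% of the brighter genes. The median of the members was 0.42 with 30 of 34 above 0, against -0.03 for all features, of which 38.9% were above 0 (47.4% of the brighter genes). The members' median was 0.25 without MIX replicate 3. The count of 12 was 7 without CON replicate 3 and 22 without MIX replicate 2. The largest differences were those of Egln3 at 1.39 (SE 0.63), Adm at 1.28 (SE 0.36) and Slc2a3 at 1.03 (SE 0.34). Next came Ndrg1 at 0.90 (SE 0.24), Hk2 at 0.90 (SE 0.35), Bnip3 at 0.83 (SE 0.24) and Slc2a1 at 0.82 (SE 0.29). As plain differences Egln3 was at 1.08 and Hk2 at 0.67. Pkm was at 0.61 (SE 0.14), Pfkp at 0.67 (SE 0.18), Car9 at 0.46 (SE 0.24), Hif1a at 0.42 (SE 0.22) and Ldha at 0.17 (SE 0.13). In 0 members did all pellet mice exceed all mice without one, where 0.344% of features and 0.913% of the brighter genes did. Averaged over pellet states, the diet difference gave 0 calls, where 0% of features were called, and 6 members higher at an unadjusted p under 0.05 in limma, where 1.79% of features and 2.68% of the brighter genes were. Its median was 0.27 with 30 of 34 above 0, against 0.00 for all features, of which 50.7% were above 0 (48.0% of the brighter genes). The members' count for the diet, 7 with the 1 lower member (Hk1), lay between 0 (without E2 replicate 4) and 15 (without MIX replicate 2), and was 3 without the code style term. Of all features 1.57% were lower for the diet at that p, and 3.21% of the brighter genes. The interaction of pellet and diet (how far the pellet difference among mice on the high-fat diet exceeds that among chow-fed mice) gave 0 calls, where 0% of features were called. Its median over the members was 0.15 and changed sign between alternatives, from -0.10 without E2 replicate 4 to 0.43 without HD replicate 3.

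Other genes of the same pathways were taken from 6 lists that share no gene with the members, and none passed in any comparison. Among other hypoxia targets, 34 of 40 measured genes were higher in MIX than in CON, with a median of 0.44 and 12 at an unadjusted p under 0.05 in limma. For this and the following lists, 42.5% of all features and 47.0% of the brighter genes were above 0 in MIX with CON. At that p, 3.7% and 8.43% were higher. The smallest p belonged to Ccng2, an unconventional cyclin gene, at 0.72 (SE 0.13), and Tmem45a, a transmembrane protein gene, at 1.41 (SE 0.28). Ccng2 had MIX mice at 7.47, 7.69 and 7.82 and CON mice at 7.04, 6.95 and 6.97. Kdr, among the other hypoxia targets, is also in the list of endothelial markers. Among other glycolysis genes and isoforms, 9 of 22 were higher in MIX than in CON, with a median of -0.08. At an unadjusted p under 0.05 in limma 3 were higher and 3 lower, where 4.64% of all features and 7.68% of the brighter genes were lower. Slc16a1, a lactate and pyruvate transporter gene, read 8.01, 8.36 and 7.43 in CON, 9.92, 9.20, 8.44 and 8.71 in E2, 8.71, 9.23 and 9.09 in HD, and 9.49, 9.47 and 9.65 in MIX. All treated mice exceeded all CON mice for Slc16a1, with differences of 1.11 (SE 0.30), 1.08 (SE 0.32) and 1.86 (SE 0.37) for E2, HD and MIX. Bpgm, the bisphosphoglycerate mutase gene, differed by 0.73 (SE 0.16) for MIX with CON. Other genes of this list were lower: Slc16a7 differed by -1.27 (SE 0.31) for MIX with HD. Pdk2 differed by -0.81 (SE 0.23) for E2 with CON and -0.62 (SE 0.25) for HD with CON.

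Among 13 further components of the HIF pathway, 4 were higher in MIX than in CON, with a median of -0.05. Ep300, a coactivator of HIF-1, averaged 9.25 in CON and 8.78 to 8.85 in the treated groups, with a difference of -0.59 (SE 0.15) for MIX with CON. Of 22 genes of pyruvate entry and the citric acid cycle 7 were higher, with a median of -0.07, and 0 were at an unadjusted p under 0.05 in limma in that comparison. Pdhb, a subunit of pyruvate dehydrogenase, had the smallest p there at 0.45 (SE 0.22). Of 7 gluconeogenesis genes 1 was higher, with a median of -0.12 and G6pc3, a glucose-6-phosphatase subunit, at -0.50 (SE 0.18) with the code style term, from plain means of 8.41 in MIX and 8.55 in CON. Of 6 pentose phosphate genes 4 were higher, with a median of 0.20, H6pd at 1.17 (SE 0.41) and Rpia at -0.30 (SE 0.09).

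Markers of several other cell types also differed between mice, and their part in the members' values was not tested. The 18 macrophage markers averaged 6.27 to 6.63 in CON, 7.09 to 7.51 in E2, 6.90 to 6.99 in HD and 7.02 to 8.05 in MIX, so every treated mouse lay above CON. In MIX with CON, 17 of 18 were higher, where 42.5% of all features and 47.0% of the brighter genes were. Cd163 was below the highest array median in all groups. By mouse, the macrophage mean was 8.05 in MIX replicate 3, whose members' mean was 0.56. It was 7.51 in E2 replicate 3, with a members' mean of -0.17, and 7.02 in MIX replicate 1, with 0.39. The 12 granulocyte markers averaged 4.78 to 5.11 in CON, 5.58 to 6.81 in E2, 5.17 to 5.41 in HD and 5.50 to 7.70 in MIX, with 8 of 12 higher in MIX than in CON. At an unadjusted p under 0.05 in limma 3 of the 12 were higher, where 3.7% of all features and 8.43% of the brighter genes were. From CON to MIX the means of S100a8, S100a9 and Retnlg went from 3.28, 5.10 and 5.36 to 8.43, 9.63 and 8.45. That of Camp went from 5.57 to 5.33. S100a8, Elane, Ngp and Siglecf were below the highest array median in CON and HD, and Elane and Ngp also in E2 and MIX. The highest granulocyte means, 7.70 and 6.81, were in MIX replicate 3 and E2 replicate 1, which also had among the highest members' means (0.56 and 0.35). E2 replicate 2 and MIX replicate 1 had members' means of 0.33 and 0.39 with granulocyte means of 5.58 and 5.83. MIX replicate 2, whose members' mean was -0.01, had an endothelial marker mean of 7.82 where the other mice had 5.34 to 6.39.

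**Figure D4:**
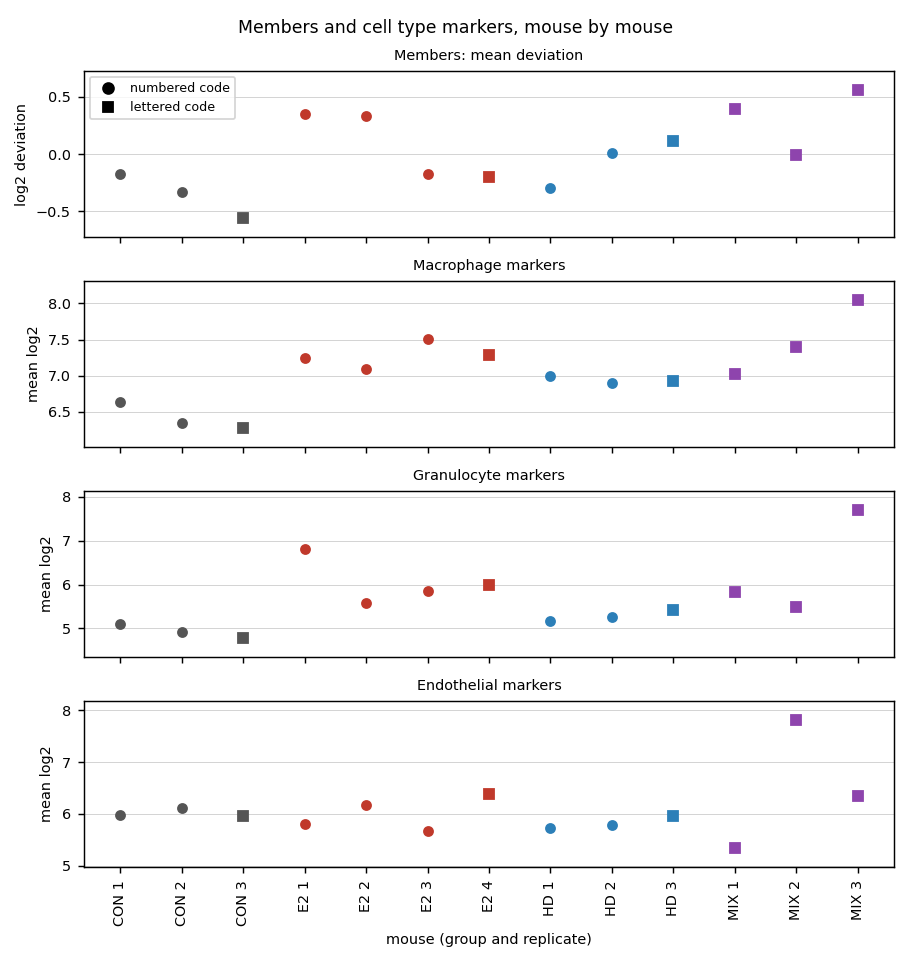
For each mouse (horizontal axis, by group; circles numbered and squares lettered animal codes), the panels show the members' mean log2 deviation and the mean log2 value of macrophage, granulocyte and endothelial markers. The macrophage panel separates CON from all treated mice, and the granulocyte panel peaks at MIX replicate 3 and E2 replicate 1.

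Of the other marker lists, all 13 squamous epithelium markers were higher in MIX than in CON, with group ranges of 5.82 to 6.10 in CON, 6.18 to 7.07 in E2, 5.92 to 6.01 in HD and 6.64 to 8.04 in MIX. The highest squamous means, 8.04, 7.73 and 7.07, were in MIX replicate 3, MIX replicate 1 and E2 replicate 1. Members' means in these mice were 0.56, 0.39 and 0.35. MIX replicate 2 had a squamous mean of 6.64 with a members' mean of -0.01, and E2 replicate 2 had 6.42 with 0.33. Krt13 and Krt15 rose with the pellet averaged over diets by 2.54 (SE 0.28) and 1.66 (SE 0.19), with adjusted p of 0.0296 and 0.0400 in limma, and Trp63 rose by 0.84 (SE 0.08) for MIX with HD (adjusted p 0.0265 in limma), with means of 4.58 in CON and E2 and 4.43 in HD, within or below the range of the array medians, and 5.28 in MIX. Trp63, Dsc3, Ivl and Krtdap of the squamous list were below the highest array median in CON, and Dsc3 and Krtdap also in MIX. All 8 mesothelial and all 12 lymphocyte markers were higher in MIX than in CON, with medians of 1.18 and 0.40. Krt19, among the mesothelial markers, is also in the uterine epithelium list. Of the lymphocyte markers, Cd2, Cd4, Ms4a1 and Klrb1c were below the highest array median in CON, and Ms4a1 also in MIX. The red cell marker Alas2 rose by 2.18 (SE 0.18) for MIX with CON (adjusted p 0.0139 in limma) with the code style term, from plain means of 7.17 in CON and 8.53 in MIX, and 2 of 3 red cell markers were higher. With the code style term, markers higher in MIX than in CON numbered 10 of 13 for stroma, 9 of 10 for endothelium and 8 of 13 for uterine epithelium. They numbered 4 of 10 for skeletal muscle, 2 of 8 for adipocytes and 1 of 10 for smooth muscle. Of all features 42.5% were higher, and 47.0% of the brighter genes. The plain means of the smooth muscle list were 6.72 in CON and 6.77 in MIX. Those of the adipocyte list were 4.93 and 4.73, with CON mice at 4.66, 4.69 and 5.43.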

How the data were processed

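Each of the 13 endometrial RNA samples was hybridised to 1 Affymetrix array. The deposited log2 expression values, 1 per feature, come from RMA, which the authors ran according to the submitters' processing notes; the sources used here give neither its version nor the array library. RMA treats all arrays jointly and compresses differences of dim features. Arrays give no read depth; the number of arrays limits the precision.

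Groups came from the labels, and each sample carries its own animal code, so each counted as 1 replicate; p-values measure the spread between these samples. All 65929 features entered 1 fit (lmFit and eBayes of limma 3.58.1, R 4.3.3, two-sided) with 4 group coefficients and code style, whose meaning the sources used here do not give; 0 features differed by code style after adjustment in limma (3516 at an unadjusted p under 0.05). The script was tested on simulated data. The numbered and lettered styles hold 7 and 6 mice. A Benjamini-Hochberg adjusted p under 0.05 counted as passed.

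The members and the gene lists were chosen with earlier results of these data known. The 18 lists (261 genes, 240 measured) cover 6 pathways and 12 cell types. By the rule for named genes, values in every mouse are given for Hif1a, Slc2a1, Hk2, Ldha, Pkm, Car9, Adm and P4ha1 and for the 3 members with the smallest p in each comparison, and up to 2 genes are named from other lists where none passed; Slc2a3, Pgk1, Bnip3, Ankrd37 and further single values were chosen after their values were seen. Features were named through the annotation table for this array, of which 30604 carried 1 symbol, 2146 several and 33179 none here, with 827 symbols updated. Pgam1 and Hif1a have further features shared with another symbol, which were not used. Alternatives were no code style term, a replicate block, each code style alone, array weights, a trended robust variance, recentred arrays, a minimum mean of 5, the mean of a gene's features and leaving out each mouse; leaving out MIX replicate 3 with E2 replicate 1 was chosen after seeing the data.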

Additional observations from a re-analysis of the deposited data

How the results depend on the processing

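No member passed the adjusted threshold in any of the 8 comparisons under any alternative; the smallest adjusted p in limma was 0.0681, for the pellet averaged over diets without MIX replicate 1. The members' median difference stayed above 0 under all alternatives in 7 comparisons, and for the interaction in 18 of 22. Leaving out 1 mouse gave medians of 0.28 to 0.44 for E2 with CON, 0.06 to 0.35 for HD with CON, 0.51 to 0.80 for MIX with CON, 0.18 to 0.48 for MIX with E2, 0.27 to 0.71 for MIX with HD, -0.10 to 0.43 for the interaction, 0.25 to 0.52 for the pellet and 0.18 to 0.37 for the diet. HD with CON had a median of 0.53 with lettered codes only. It was 0.06 without HD replicate 3 and 0.35 without HD replicate 1. Without MIX replicate 3 and E2 replicate 1 the medians were 0.28 for E2 with CON, 0.51 for MIX with CON, 0.25 for MIX with HD and 0.24 for the pellet, and Hif1a in MIX with CON was -0.03. Without the code style term the medians were 0.61 for MIX with CON and 0.31 for MIX with HD. The causes were not tested.

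With the replicate number as a block the medians were 0.41 for E2 with CON, 0.65 for MIX with CON, 0.14 for MIX with E2, 0.14 for the diet and -0.08 for the interaction, and the direction of Mxi1 turned to -0.25 for MIX with E2. The same numbers do not pair the mice: of 18 same-number pairs 5 correlated above 0.1 in their deviations from the group means, with a range of -0.261 to 0.310. With 3 or 4 mice in a group, a missed threshold does not show that a gene did not differ.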
